A study of Mus musculus with 62 samples.

Results

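The platelet-derived growth factor (PDGF) family of the mouse comprises 4 ligand genes, Pdgfa, Pdgfb, Pdgfc and Pdgfd, and 2 receptor genes, Pdgfra and Pdgfrb. These 6 genes were taken by Entrez identifier from 3 tables of RNA-seq read counts, which listed 16206 genes for the liver, 17653 for the prefrontal cortex and 17874 for the striatum. All 6 were listed, and passed the filter on low counts, in every table. Pdgfb was chosen by its measured values, a dose slope in the prefrontal cortex that fell in earlier results of these data. Its values in that tissue are therefore given as a description with no test, and so are contrasts between that tissue and others.

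The 62 libraries came from female C57BL/6 mice, an inbred strain, that received by mouth a mixture of polychlorinated biphenyls (PCBs, persistent chlorinated industrial chemicals). The mixture is named MARBLES in the series' text, and the doses were 0 (labelled vehicle), 0.1, 1 and 6 mg/kg. In order of rising dose, from vehicle up, there were 4, 5, 6 and 6 libraries of each brain region and 4, 4, 6 and 6 of liver. All groups share sex and strain, and age, the number of doses and the composition of the vehicle are not given in the sources used here. The number in a library's title is called its animal number below. The labels do not say that libraries of a group came from separate mice, so p-values measure the spread between libraries.

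PDGF ligands are secreted as dimers that bind and pair receptor tyrosine kinases on nearby cells. PDGF-A and PDGF-C act mainly through PDGFRα, and PDGF-B and PDGF-D mainly through PDGFRβ. In the brain, PDGFRα marks oligodendrocyte precursor cells, and PDGFRβ marks pericytes and other mural cells, which are recruited to capillaries by PDGF-B from the endothelium. Neurons also make PDGF-A and PDGF-B. In the liver, both receptors are carried by hepatic stellate cells and fibroblasts.

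Library totals were 7.38 to 10.2 M (10⁶ counts) in the liver, 8.72 to 12.14 M in the prefrontal cortex and 8.28 to 12.02 M in the striatum. Levels are CPM, in which each count is divided by its library's total and a TMM factor (trimmed mean of M values). The family was well covered in the brain and thinly covered in the liver. Pdgfb had 261 to 612 counts per library in the prefrontal cortex and 201 to 536 in the striatum, against 7 to 26 in the liver. Pdgfd had 10 to 51, 13 to 83 and 3 to 20 counts in the same order, and Pdgfc had 2 to 63 counts in the liver. Small differences in these liver genes were not detectable at this depth. In bulk tissue, fewer cells of a type and less RNA per cell cannot be told apart. Neuron markers summed to 6567 to 7925 CPM across prefrontal cortex libraries and 6.14 to 56.3 CPM in liver. Hepatocyte markers summed to 82137 CPM or more in every liver library, as the labels say. These sums do not tell the brain regions apart. Striatal projection neuron markers summed to 732 to 2378 CPM across prefrontal cortex libraries and 2197 to 5263 CPM across striatal libraries, so the regions overlapped.

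To place the genes on one scale, CPM was divided by the length in kilobases of the longest annotated transcript. In vehicle prefrontal cortex, Pdgfa was at 22.6 ± 1.58 CPM per kb (SD, n = 4) and Pdgfb at 17.7 ± 0.933, and their libraries did not overlap. Below them came Pdgfra at 7.61 ± 0.595, Pdgfrb at 4.79 ± 0.390, Pdgfc at 2.52 ± 0.343 and Pdgfd at 0.932 ± 0.118 CPM per kb, each neighbouring pair again without overlap. The striatum had the same order of means. There, Pdgfa was at 23.6 ± 1.65 CPM per kb, Pdgfb at 10.6 ± 1.78 and Pdgfra at 9.16 ± 1.06 (SD, n = 4), and the libraries of Pdgfb and Pdgfra overlapped. Pdgfrb followed at 5.004 ± 0.421, Pdgfc at 2.18 ± 0.559 and Pdgfd at 0.988 ± 0.454 CPM per kb. In the liver, Pdgfa was again first, at 2.27 ± 0.570 CPM per kb, but Pdgfrb came next at 1.66 ± 0.373 and Pdgfb was last at 0.388 ± 0.152 (SD, n = 4). Pdgfc at 1.18 ± 0.410, Pdgfra at 0.867 ± 0.206 and Pdgfd at 0.477 ± 0.205 lay between, and every neighbouring pair in the liver order overlapped.

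**Figure D1:**
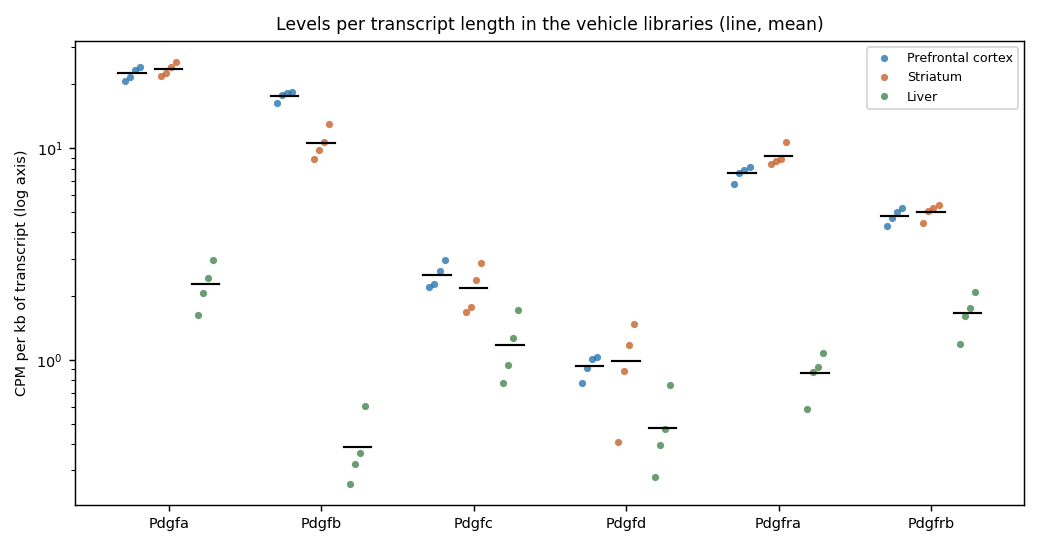
CPM per kb of transcript (log axis) of the 6 genes in the 4 vehicle libraries of each tissue (points) with their mean (line). Pdgfa was highest in all 3 tissues, and Pdgfb was second in both brain regions (17.7 and 10.6 CPM per kb) and last in the liver (0.388).

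The vehicle libraries of the tissues were compared in pairs with edgeR's quasi-likelihood test, adjusted by the Benjamini-Hochberg method over all genes. Of the 5 genes tested between prefrontal cortex and liver, 3 differed, in a contrast in which 84.9% of all 13838 genes passed. Pdgfa was higher in prefrontal cortex by 2.38 on the log2 scale (SE 0.171, edgeR adjusted p 9.74e-09), Pdgfra by 2.20 (SE 0.167, adjusted p 1.73e-08) and Pdgfrb by 0.60 (SE 0.167, adjusted p 0.00429). Pdgfc and Pdgfd differed by 0.15 (SE 0.244) and 0.05 (SE 0.327) and did not pass. Between striatum and liver, 4 of 6 passed, against 83.7% of 13971 genes. Pdgfb had the largest of these 4 differences, 3.79 (SE 0.252, adjusted p 7.58e-09), ahead of Pdgfra at 2.40, Pdgfa at 2.38 and Pdgfrb at 0.60 (adjusted p 0.00657). None of the 5 genes tested between the brain regions passed, where 22.2% of 14514 genes did by edgeR and 0 of the 5 had an unadjusted p under 0.05. Pdgfb itself was 0.82 higher in prefrontal cortex than in striatum (SE 0.119) and 4.60 higher than in liver (SE 0.201), given without a test. Brain against liver differences depend on the scaling, since library totals alone, without TMM factors, raised them by about the same amount for each gene. On that scale Pdgfrb stood 1.31 above liver in prefrontal cortex, and all 5 tested genes passed.

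Of the ligands, Pdgfb encodes the subunit best known for mural cell recruitment, and the gene lies at chr15:79995865-80024614 (GRCm38). In the prefrontal cortex, the 4 vehicle libraries held 48.1, 52.6, 53.8 and 53.9 CPM. At 0.1 mg/kg the 5 libraries held 49.6, 51.1, 54.3, 55.1 and 58.3 CPM. At 1 mg/kg the lowest, median and highest of 6 libraries were 37.4, 42.5 and 48.2 CPM, and at 6 mg/kg they were 28.6, 33.4 and 45.4 CPM. The vehicle and 0.1 mg/kg groups thus overlapped, with 3 of the 5 libraries at 0.1 mg/kg above every vehicle library, the 1 mg/kg group reached the lowest vehicle library only with its highest member, and every 6 mg/kg library lay below every vehicle and every 0.1 mg/kg library. Group means were 52.1 ± 2.75 (SD, n = 4), 53.7 ± 3.41 (n = 5), 42.6 ± 3.76 (n = 6) and 35.2 ± 5.93 CPM (n = 6), so the 6 mg/kg mean was 67.7% of vehicle. On the log2 scale the difference from vehicle was 0.04 (SE 0.106) at 0.1 mg/kg, -0.29 (SE 0.102) at 1 mg/kg and -0.56 (SE 0.102) at 6 mg/kg. The slope over dose rank, in which each step from vehicle to 0.1, 1 and 6 mg/kg counts as 1, was -0.21 per step (SE 0.035). As the choice of the gene used this contrast, nothing is read from these values, nor from the shares of all 14838 genes in it. Of these, 0.0202% passed for the slope and 3.11% had 6 mg/kg and vehicle groups that did not overlap.

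**Figure D2:**
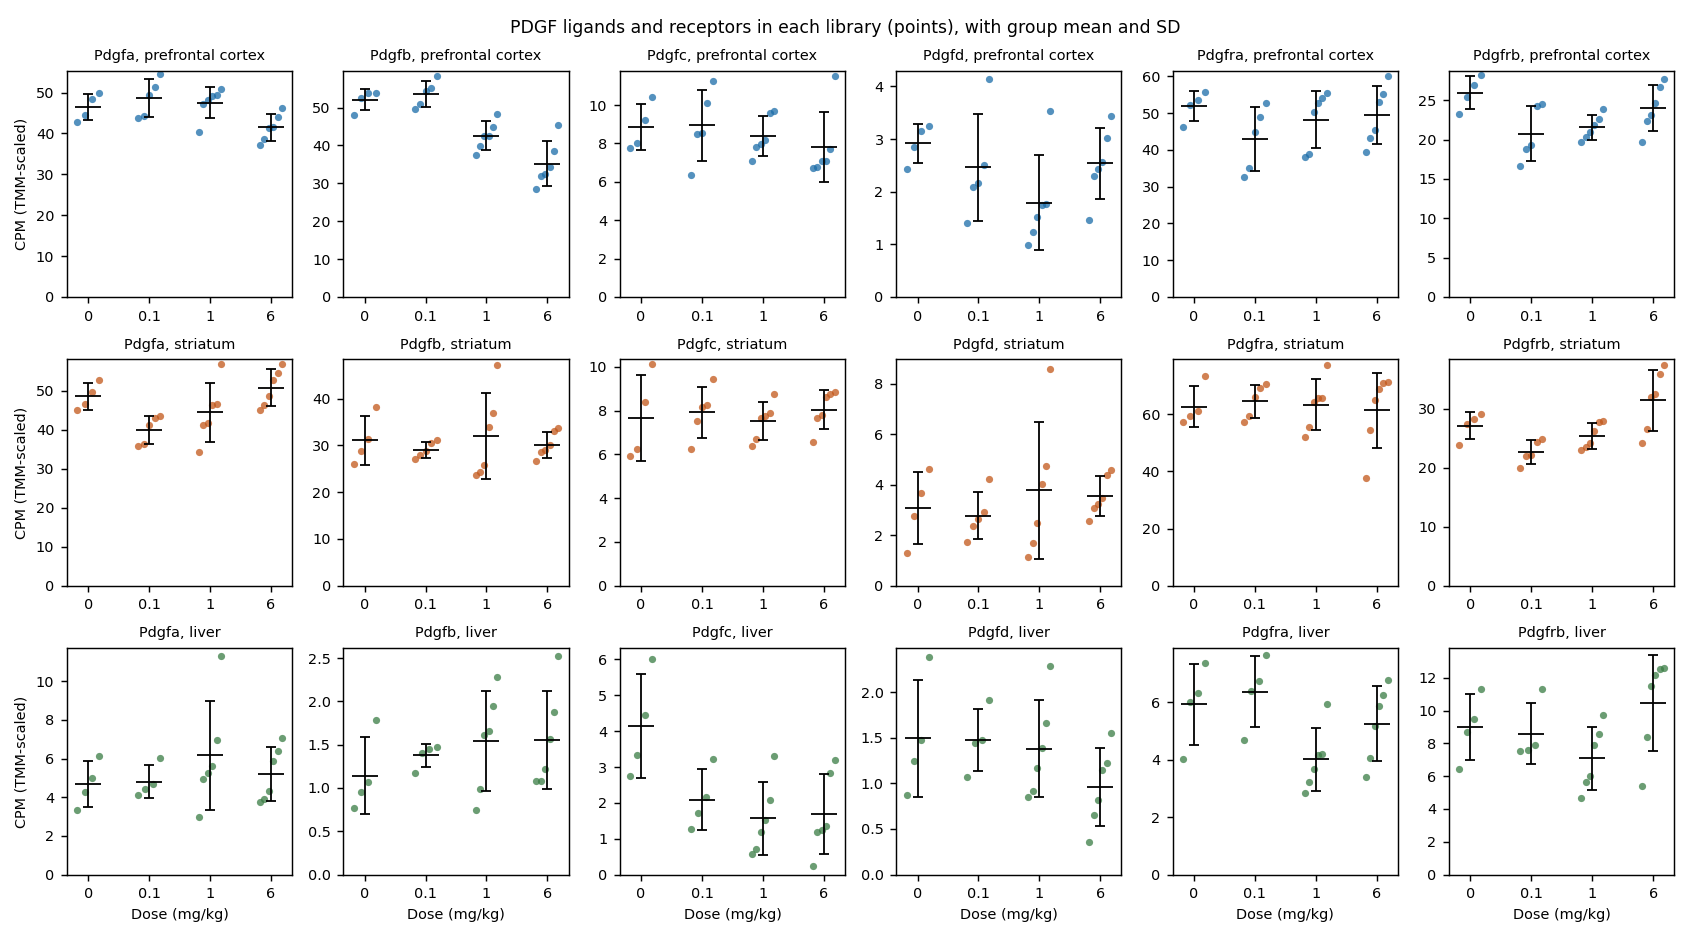
TMM-scaled CPM of each gene (columns) in each tissue (rows) against dose in mg/kg; points are libraries and bars are the group mean with SD. Pdgfb in prefrontal cortex goes from 52.1 CPM in vehicle to 35.2 CPM at 6 mg/kg, and Pdgfc in liver from 4.14 to 1.68 CPM.

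The same gene gave no such pattern in the striatum. Its vehicle libraries held 26.1, 28.8, 31.3 and 38.3 CPM, and the 6 libraries at 6 mg/kg ran from 26.6 through a median of 29.6 to 33.8 CPM, inside the vehicle range. Pdgfb differed from vehicle there by -0.04 (SE 0.154, edgeR adjusted p 0.909) at 6 mg/kg, and its slope was 0.00 per step (SE 0.048, adjusted p 0.990). The contrast between the regions, the 6 mg/kg effect in prefrontal cortex minus that in striatum, was -0.51 (SE 0.169) and was not tested. In the liver, Pdgfb was at 1.14 ± 0.447 CPM in vehicle (SD, n = 4) and 1.56 ± 0.565 at 6 mg/kg (SD, n = 6), a difference of 0.46 (SE 0.391, adjusted p 0.482).

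Striatal Pdgfb was most scattered at 1 mg/kg, where the 6 libraries held 23.6, 24.3, 25.8, 33.9, 36.9 and 47.2 CPM. The 3 high libraries, animals 48, 46 and 50, were also those of that group with the most Slc17a7, the vesicular glutamate transporter of cortical excitatory neurons, at 479, 683 and 1362 CPM. The other 3 held 168 to 241 CPM of Slc17a7. Over the 21 striatal libraries, Slc17a7 ranged from 42.2 to 1362 CPM and its Pearson correlation with Pdgfb was 0.73 (0.79 after removing group means). The general neuron markers Rbfox3 and Snap25 correlated with Pdgfb at 0.67 (0.69) and 0.47 (0.64). The striatal projection neuron markers Drd1 and Ppp1r1b stood at -0.09 (-0.07) and 0.06 (0.13). These correlations describe libraries that share a dissection, a sequencing depth and a scaling, and the part of Slc17a7-bearing tissue in the striatal Pdgfb values was not tested.

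**Figure D3:**
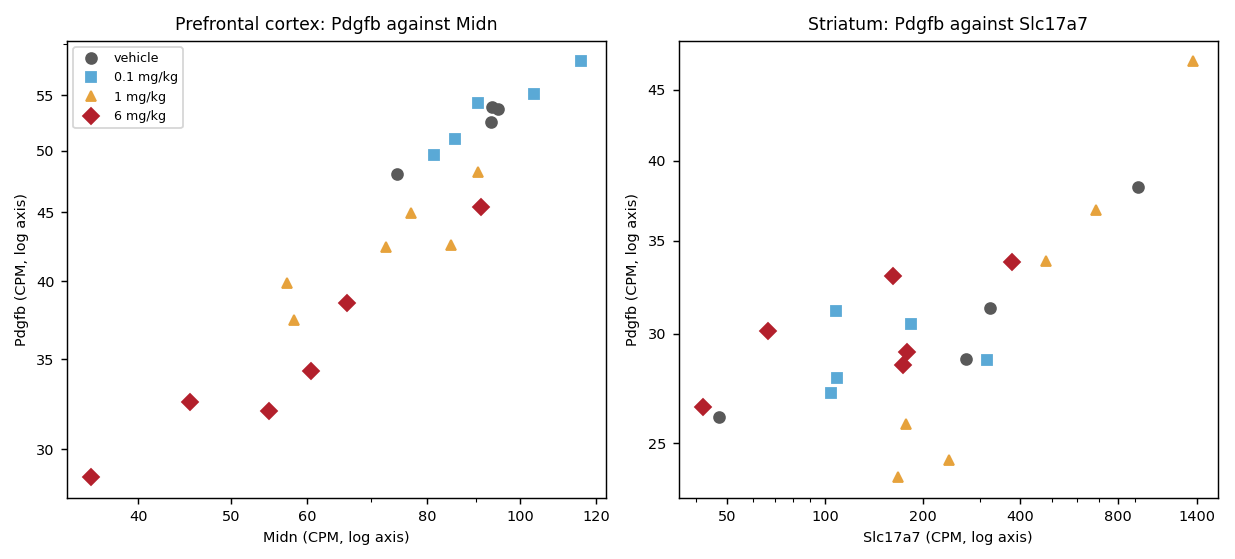
Pdgfb CPM against Midn CPM in the 21 prefrontal cortex libraries (left) and against Slc17a7 CPM in the 21 striatal libraries (right), on log axes, with symbols for dose. Pdgfb and Midn, a gene picked by this correlation, run along a line (r = 0.94). The striatal library with the most Slc17a7 (1362 CPM) has the most Pdgfb (47.2 CPM).

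The genes whose log2 CPM followed Pdgfb most closely over the 21 prefrontal cortex libraries were Midn (r = 0.94), Stk40 (0.93), Plk3 (0.91), Efnb1 (0.90) and Ccdc117 (0.89). Midn encodes midnolin, a nuclear protein that brings short-lived proteins to the proteasome, and Plk3 a stress-responsive kinase. These 5 were picked by values that carry the dose slope by which Pdgfb was chosen, so their own fall with dose is no separate result. With group means removed, the correlations were 0.94, 0.82, 0.82, 0.77 and 0.73. Midn held 74.3 to 94.7 CPM in vehicle and 35.7 to 91.1 CPM at 6 mg/kg, and animal 54, the 6 mg/kg library with the most Pdgfb (45.4 CPM), also had the most Midn. In the striatum the 5 closest genes were Dgkz (0.94), Rasal1 (0.93), Fam131a (0.93), Sirpa (0.91) and Slc7a4 (0.88), none of them among those of prefrontal cortex, while Midn stood at 0.71 there.

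Genes induced by neuronal activity were looked at next, a list chosen after values had been seen. In prefrontal cortex, Pdgfb correlated with Fosb at 0.86, Egr1 at 0.75, Fos at 0.70, Nr4a1 and Arc at 0.67, Junb at 0.65, Dusp1 at 0.61 and Npas4 at 0.45 (Pearson, 21 libraries). These values carry the dose slope by which Pdgfb was chosen. With group means removed they were 0.60, 0.83, 0.55, 0.63, 0.48, 0.50, 0.37 and 0.06, in the order Fosb, Egr1, Fos, Nr4a1, Arc, Junb, Dusp1 and Npas4. Fosb, a subunit of the AP-1 transcription factor, had the steepest slope relative to its error, -0.34 per step (SE 0.081, edgeR adjusted p 0.114), and none of the 8 passed, where 0.0202% of all genes did. An unadjusted p under 0.05 was found for 4 of 8, against 9.79% of all genes. In the striatum all 8 slopes were negative as well, from -0.40 for Nr4a1 and Fos to -0.16 for Dusp1, and the slope of Pdgfb was 0.00. Of the whole table, 1862 genes passed there for a slope over mg/kg, but none did over dose rank. All 8 had an unadjusted p under 0.05 (0.000625 to 0.0216, edgeR adjusted p 0.243 to 0.327), against 13.1% of all genes. In the same striatal libraries Slc17a7 differed by -1.22 (SE 0.721) at 6 mg/kg against vehicle and had a slope of -0.17 (SE 0.287). The Spearman correlation of a library's deviations with the GC content of genes was 0.29 to 0.43 at 6 mg/kg, -0.57 to 0.28 at 1 mg/kg, -0.32 to -0.03 at 0.1 mg/kg and -0.41 to 0.39 in vehicle. The part of either in the activity genes was not tested.

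Markers of the endothelium, a main source of PDGF-B, were read beside Pdgfb in prefrontal cortex. The 13 endothelial markers summed to 325 to 385 CPM in vehicle and 356 to 415 CPM at 6 mg/kg. None passed at 6 mg/kg by edgeR, 1 had an unadjusted p under 0.05, as did 9.27% of all genes, and 12 of 13 had a positive log2 difference (median 0.10, against 0.00 over all genes). Over the 21 libraries, the correlations of Pdgfb with the 13 markers ran from -0.45 for Slco1a4, a transporter, to 0.46 for Slc2a1, the glucose transporter of brain capillaries. With group means removed they ran from -0.29 for Pecam1 to 0.33 for Eng. The 7 neuron markers summed to 6928 to 7925 CPM in vehicle and 6737 to 7640 CPM at 6 mg/kg. Of the 7, 3 had a positive and 4 a negative slope, with a median of -0.01. The slope of 1 had an unadjusted p under 0.05, against 9.79% of all genes: Slc17a7, at -0.10 per step (SE 0.034, edgeR adjusted p 0.294). The 4 red cell and platelet markers listed, of 7, varied widely, with a sum of 44.5 to 583 CPM in vehicle and 14.2 to 85.2 CPM at 6 mg/kg. Of the 3 tested at 6 mg/kg, 1 was positive and 2, the haemoglobin genes Hba-a1 and Hbb-bt, were negative with an unadjusted p under 0.05. They differed by -2.20 (SE 0.746) and -2.04 (SE 0.719), with edgeR adjusted p 0.389 and 0.411. Of 8 oligodendrocyte markers, all were positive at 6 mg/kg, with a median of 0.24. None passed, and 3 had an unadjusted p under 0.05, against 9.27% of all genes. The part of all these markers in the Pdgfb values was not tested.

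Pdgfa, whose product acts on oligodendrocyte precursors, did not differ from vehicle at any dose in any tissue by the adjusted test. In the prefrontal cortex it held 42.9 to 49.9 CPM in vehicle and 37.3 to 46.2 CPM at 6 mg/kg, a difference of -0.16 (SE 0.089, edgeR adjusted p 0.590). In the striatum, vehicle libraries held 45.01, 46.6, 49.8 and 52.6 CPM, while at 0.1 mg/kg they held 35.9, 36.3, 41.2, 42.9 and 43.4 CPM. All 0.1 mg/kg libraries were thus below all vehicle libraries, as 1.31% of all 15118 genes had groups apart in that contrast. The difference of -0.28 (SE 0.115) had an unadjusted p of 0.0222 and an edgeR adjusted p of 1.00. In the liver, Pdgfa was at 4.68 ± 1.17 CPM in vehicle (SD, n = 4) and 5.21 ± 1.41 at 6 mg/kg (SD, n = 6), and 1 library at 1 mg/kg, animal 45, reached 11.3 CPM.

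Pdgfc encodes a ligand with a CUB domain that must be cleaved off, by tissue plasminogen activator among others, before the growth factor can bind. In the liver, its 4 vehicle libraries held 2.74, 3.34, 4.45 and 6.02 CPM, from 26 to 63 counts. At 0.1 mg/kg they held 1.26, 1.71, 2.15 and 3.23 CPM. At 1 mg/kg the lowest, median and highest of 6 were 0.575, 1.36 and 3.31 CPM, and at 6 mg/kg they were 0.234, 1.30 and 3.20 CPM, the lowest from 2 counts. Each dosed group thus lay mostly below vehicle and overlapped it with its highest libraries. The log2 difference was -0.99 (SE 0.544) at 0.1 mg/kg, -1.39 (SE 0.495, unadjusted p 0.00991) at 1 mg/kg and -1.29 (SE 0.491, unadjusted p 0.0156) at 6 mg/kg. None passed, with edgeR adjusted p of 0.994, 0.524 and 0.124. The slope was -0.42 per step (SE 0.150, unadjusted p 0.00985, edgeR adjusted p 0.0919).

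Among all 12968 liver genes, 4.81% passed for the slope and 25.4% had an unadjusted p under 0.05. Without the 6 mg/kg library of animal 55 (2.82 CPM) or 56 (3.20 CPM), those of that group with the most Pdgfc, the Pdgfc slope passed. It was -0.50 (edgeR adjusted p 0.0455) and -0.52 (adjusted p 0.0334), in fits where 1224 and 1317 of all genes passed. Over the removal of each of 20 libraries, the slope was -0.52 to -0.33, with adjusted p 0.0334 to 0.254. Liver libraries also differed in how their deviations from the mean tracked the GC content of genes. This GC slope, a Spearman correlation across genes, was -0.28 to -0.16 in vehicle and -0.02 to 0.24 at 6 mg/kg, without overlap. With it as a covariate, a fit chosen after seeing the data, the Pdgfc slope was -0.20 (adjusted p 0.763), and the part of GC content in the liver values was otherwise not tested. Hepatic stellate cell markers, summed, were 286 to 515 CPM in vehicle and 427 to 541 CPM at 6 mg/kg, and none of the 8 passed in that contrast, where 2.8% of all genes did. At an unadjusted p under 0.05 there was 1 of 8, against 24.2% of all genes. Hepatocyte markers in the same contrast were negative in 7 of 8, with a median of -0.35 and 4 lower at an unadjusted p under 0.05. Of 7 fibroblast markers, 4 were positive and 3 negative, with 2 lower at that threshold. None of either list passed, and the part of these cells in the Pdgfc value was not tested.

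In the brain regions, Pdgfc stayed between 5.92 and 11.5 CPM in all 42 libraries. At 6 mg/kg it differed from vehicle by -0.18 (SE 0.169, edgeR adjusted p 0.780) in prefrontal cortex and 0.07 (SE 0.159, adjusted p 0.851) in striatum. The test of the difference between tissues, the striatal minus the liver effect of 6 mg/kg, gave 1.36 (SE 0.503, unadjusted p 0.0129, adjusted p 0.271), and that of prefrontal cortex minus liver 1.11 (SE 0.494, adjusted p 0.215). Of all genes, 0.0277% and 0.899% passed in these 2 contrasts, and no PDGF gene tested did. In the remaining contrast of this kind, between the brain regions, 0% of genes passed by edgeR, and 6.43% had an unadjusted p under 0.05.

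Pdgfd, the ligand that signals through PDGFRβ after cleavage by urokinase, was the least abundant ligand per kb in both brain regions. In prefrontal cortex it was at 2.92 ± 0.370 CPM in vehicle (SD, n = 4) and 1.79 ± 0.900 at 1 mg/kg (SD, n = 6), a difference of -0.70 (SE 0.314, unadjusted p 0.0335, edgeR adjusted p 0.588). At 6 mg/kg it was at 2.54 ± 0.675 CPM, -0.19 from vehicle (SE 0.305). Striatal Pdgfd spread from 1.14 to 8.59 CPM within the 1 mg/kg group alone. In the liver it was at 1.49 ± 0.643 CPM in vehicle (SD, n = 4) and 0.959 ± 0.431 at 6 mg/kg (SD, n = 6), and that difference of -0.62 (SE 0.423) had an adjusted p of 0.373.

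**Figure D4:**
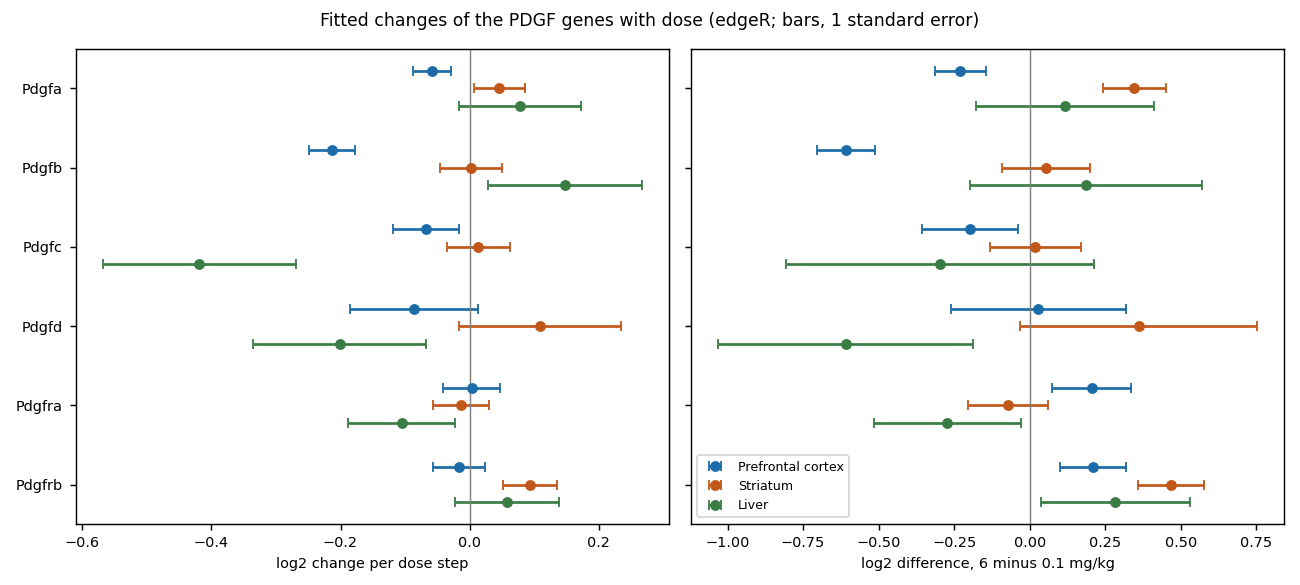
Fitted log2 change per dose step (left) and log2 difference between 6 and 0.1 mg/kg (right) for the 6 genes in 3 tissues; points are edgeR estimates and bars 1 standard error. On the left, liver Pdgfc is at -0.42 per step with a bar of 0.150, and Pdgfb in prefrontal cortex, shown as a description, is at -0.21. On the right, striatal Pdgfrb is at 0.47.

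Among the receptors, Pdgfra did not pass at any dose. In striatum it was at 62.6 ± 7.22 CPM in vehicle (SD, n = 4) and 61.3 ± 13.1 at 6 mg/kg (SD, n = 6), where animal 54 had 37.7 CPM and the others 54.4 to 71.3 CPM. In prefrontal cortex it was at 52.01 ± 4.07 CPM in vehicle and 49.5 ± 7.90 at 6 mg/kg, -0.07 on the log2 scale (SE 0.139). In the liver, the 1 mg/kg libraries ran from 2.85 to 5.96 CPM against 4.01 to 7.38 CPM in vehicle, a difference of -0.56 (SE 0.246, unadjusted p 0.0319, edgeR adjusted p 0.573). Across libraries, Pdgfra and Pdgfb were correlated at -0.03 in liver (20 libraries), -0.34 in prefrontal cortex, where Pdgfb was chosen by its slope, and -0.46 in striatum (21 libraries each). With group means removed these were 0.11, -0.44 and -0.47.

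Pdgfrb, the mural cell receptor, was the only PDGF gene tested that passed in a contrast between dose groups of a tissue. It did so between 6 and 0.1 mg/kg in the striatum, where 2.91% of all 15118 genes passed. At an unadjusted p under 0.05 there were 2 of the 6 PDGF genes, Pdgfrb and Pdgfa, against 22.3% of all genes. Between the same doses 0.0386% of genes passed in the liver and 0.108% in prefrontal cortex. At an unadjusted p under 0.05 the shares were 12.8% and 10.1%, with 0 PDGF genes in the liver and 1, Pdgfa at -0.23 (SE 0.083, edgeR adjusted p 0.329), in prefrontal cortex. The 0.1 mg/kg libraries held 20.02, 21.9, 22.2, 24.4 and 24.9 CPM and the 6 mg/kg libraries 24.2, 26.5, 32.0, 32.5, 35.9 and 37.5 CPM. The lowest 6 mg/kg library thus overlapped the upper 2 at 0.1 mg/kg. Pdgfrb rose by 0.47 from 0.1 to 6 mg/kg (SE 0.109, edgeR adjusted p 0.0345). The vehicle libraries, at 23.9, 27.4, 28.2 and 29.1 CPM, overlapped both groups. From vehicle, Pdgfrb differed by -0.26 (SE 0.120, adjusted p 1.00) at 0.1 mg/kg and by 0.21 (SE 0.115, adjusted p 0.368) at 6 mg/kg. Pdgfa differed in the same contrast by 0.35 (SE 0.105, adjusted p 0.0663), and its 6 mg/kg libraries, 44.98 to 56.9 CPM, were all above those at 0.1 mg/kg, as the groups of 7% of all genes did not overlap.

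The call for Pdgfrb was lost when single libraries were removed. Without any 1 of the 6 mg/kg animals 55 and 56 or the 0.1 mg/kg animals 23, 24, 25 and 29, the difference was 0.41 to 0.50 with adjusted p between 0.0532 and 0.0909. The GC slopes of the groups did not overlap, at 0.29 to 0.43 for 6 mg/kg and -0.32 to -0.03 for 0.1 mg/kg, and with this slope as a covariate Pdgfrb differed by 0.35 (adjusted p 0.516) and Pdgfa by 0.12 (adjusted p 0.762). Only 3 of all genes passed in that fit, and whether the other striatal calls given below were among them is not shown. Without 0.1 mg/kg animal 29, 0 genes of the whole table passed between these doses, so those calls were lost as well.

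Mural cell markers were read beside Pdgfrb in the same contrast. Of 13, 12 had a positive difference and none passed by the adjusted test, with 4 at an unadjusted p under 0.05, all positive, against 22.3% of all genes. Their median was 0.30, against 0.01 over all genes. Acta2, the smooth muscle actin, differed by 0.58 (SE 0.191, edgeR adjusted p 0.0847) and Notch3, a mural receptor, by 0.40 (SE 0.182, adjusted p 0.197), whereas Rgs5, a pericyte gene, differed by 0.02 (SE 0.117). Summed, the mural markers were 233 to 266 CPM at 0.1 mg/kg, 258 to 322 CPM in vehicle and 252 to 322 CPM at 6 mg/kg. Of 13 endothelial markers, 10 were positive and 3 negative, with 4 higher at an unadjusted p under 0.05. Only Eng (endoglin) passed, with a rise of 0.55 (edgeR adjusted p 0.0322), where 2.91% of all genes passed. Endothelial sums were 398 to 427 CPM at 0.1 mg/kg and 411 to 485 CPM at 6 mg/kg. Oligodendrocyte precursor markers summed to 464 to 611 CPM at 0.1 mg/kg and 614 to 701 CPM at 6 mg/kg. Of 11, 1 passed, C1ql1, which rose by 0.56 (edgeR adjusted p 0.0451), against the same 2.91% of all genes. Of these 11, 6 were positive and 5 negative, with 3 higher and 1 lower at an unadjusted p under 0.05, and Pdgfra differed by -0.07 (SE 0.132). Of 7 fibroblast markers, all were positive, with a median of 0.23, 1 at an unadjusted p under 0.05 and sums of 41.6 to 67.2 CPM at 0.1 mg/kg and 51.2 to 91.1 CPM at 6 mg/kg. Of 8 oligodendrocyte markers, all were positive too, with a median of 0.30, 3 at an unadjusted p under 0.05 and sums of 4947 to 7511 CPM and 6951 to 9697 CPM. None of either list passed by edgeR. The 6 microglia markers tested summed to 182 to 205 CPM at 0.1 mg/kg and 184 to 252 CPM at 6 mg/kg, with 3 higher at an unadjusted p under 0.05. The 6 astrocyte markers summed to 2560 to 3216 CPM and 1745 to 2866 CPM, with 1 higher and 2 lower, and none of these 2 lists passed. The part of these cell types in the Pdgfrb value was not tested.

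**Figure D5:**
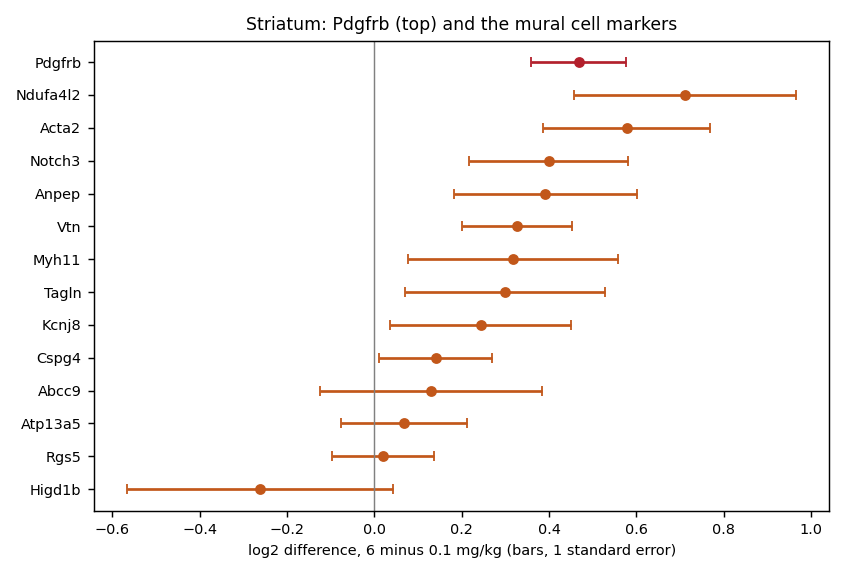
Log2 difference between 6 and 0.1 mg/kg in the striatum for Pdgfrb (top) and the 13 mural cell markers, with bars of 1 standard error from edgeR. Pdgfrb (0.47) passed the adjusted test; Acta2 (0.58) and Notch3 (0.40) did not, and Rgs5 (0.02) lay near 0.

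In prefrontal cortex, Pdgfrb was lower than vehicle at the lower doses by values that did not pass. The vehicle libraries held 23.3, 25.5, 26.9 and 28.2 CPM, and those at 0.1 mg/kg 16.7, 18.8, 19.3, 24.3 and 24.6 CPM. The difference was -0.32 (SE 0.120, unadjusted p 0.0134, edgeR adjusted p 0.742) at 0.1 mg/kg, -0.27 (SE 0.115, unadjusted p 0.0282, adjusted p 0.588) at 1 mg/kg and -0.11 (SE 0.115, adjusted p 0.809) at 6 mg/kg. Both brain regions therefore had their lowest Pdgfrb mean at 0.1 mg/kg, 20.8 CPM in prefrontal cortex and 22.7 CPM in striatum. Liver Pdgfrb was at 8.99 ± 2.02 CPM in vehicle (SD, n = 4) and 10.4 ± 2.92 at 6 mg/kg (SD, n = 6), a difference of 0.22 (SE 0.247, adjusted p 0.610).

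Of the PDGF genes tested, none passed against vehicle at any dose, or for the slope over dose rank, in any tissue, by edgeR or by DESeq2. At 6 mg/kg, 2.8% of all liver genes passed by edgeR, against 0% in both brain regions. At an unadjusted p under 0.05 the shares were 24.2% in liver, where Pdgfc was among them, 9.27% in prefrontal cortex and 15.7% in striatum, with none of the PDGF genes tested (Pdgfb in prefrontal cortex was not). At 1 mg/kg, 0% passed in all 3 tissues, and the unadjusted shares were 8.44% in liver (Pdgfc and Pdgfra among them), 8.29% in prefrontal cortex (Pdgfd and Pdgfrb) and 7.36% in striatum (no PDGF gene). At 0.1 mg/kg, 0.0154% passed in liver and 0% in each brain region, and the unadjusted shares were 4.1% in liver (no PDGF gene), 6.43% in prefrontal cortex (Pdgfrb) and 2.53% in striatum (Pdgfa and Pdgfrb). For the slope, 0% passed in striatum, and 13.1% there (Pdgfrb, at 0.09 per step with SE 0.042) and 9.79% in prefrontal cortex (no PDGF gene tested) had an unadjusted p under 0.05. These shares depend on the fit. For a slope over mg/kg, 1862 striatal genes passed by edgeR. With the GC slope as a covariate, 1 liver gene and 130 prefrontal cortex genes passed at 6 mg/kg. In that fit 127 prefrontal cortex genes passed for the dose slope.

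The genes around the receptors were read from lists of pathway members. Of 13 genes that process PDGF ligands or act as coreceptors or phosphatases, none passed for the dose slope in any tissue by edgeR, where 4.81% of all genes did in liver, 0.0202% in prefrontal cortex and 0% in striatum. At an unadjusted p under 0.05 there were 3 of 12 tested in liver (1 higher, 2 lower), 4 of 13 in prefrontal cortex (all lower) and 1 of 13 in striatum (lower), against 25.4%, 9.79% and 13.1% of all genes. In prefrontal cortex, Furin, a proprotein convertase that cleaves PDGF-A and PDGF-B precursors, had a slope of -0.13 (SE 0.036, edgeR adjusted p 0.167). Plat, the tissue plasminogen activator that cleaves PDGF-C, had -0.11 (SE 0.040, adjusted p 0.303), and Lrp1 and Nrp2, both receptors for several ligands, had -0.09 and -0.13. The median of the list in prefrontal cortex was -0.06, against 0.00 over all genes.

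Of 32 genes of receptor-proximal signalling, 1 passed at 6 mg/kg, in the liver, where 2.8% of all genes did, a share near that of the list. This gene, Nck1, encodes an adaptor that binds phosphorylated PDGFRβ. Nck1 fell by 1.17 (SE 0.229, edgeR adjusted p 0.0134), with a slope of -0.39 per step (adjusted p 0.00573). Of the 32, 25 were negative in that contrast, with a median of -0.18 against 0.02 over all genes. In the striatum, Crk, another adaptor, fell by 0.37 from 0.1 to 6 mg/kg (SE 0.073, edgeR adjusted p 0.0270). It was the only gene of the 32 to pass, where 2.91% of all genes did. This call was lost without 0.1 mg/kg animal 29, where 0 genes of the whole table passed. Of 6 tested genes of the related receptor kinases Kit, Csf1r and Flt3 and their ligands, Csf1, the macrophage growth factor, rose in liver at 6 mg/kg by 0.73 (SE 0.193, adjusted p 0.0437), where 2.8% of all genes passed. Macrophage markers in the same libraries summed to 155 to 239 CPM in vehicle and 210 to 419 CPM at 6 mg/kg. Of 9, 8 were positive, with a median of 0.39 against 0.02 over all genes. An unadjusted p under 0.05 was found for 3 of 9, against 24.2% of all genes. Clec4f, a Kupffer cell gene, rose by 0.93 (SE 0.226, adjusted p 0.0333), and the part of these cells in the Csf1 value was not tested. With the GC slope as a covariate, 1 of all liver genes passed at 6 mg/kg, where 363 had passed without it. In the fit without this covariate, the removal of single libraries moved the 363 to between 3 and 1302. At 6 mg/kg against vehicle, none of the tested VEGF ligands and receptors, a neighbouring family of endothelial growth factors and kinases, passed by edgeR, in contrasts where 2.8% of liver genes and 0% of genes in each brain region did. At an unadjusted p under 0.05 there were 1 of 7 in liver, 2 of 8 in prefrontal cortex and 2 of 7 in striatum, against 24.2%, 9.27% and 15.7% of all genes.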

How the data were processed

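The authors deposited whole-number read counts per Entrez gene, 1 table per tissue. Per the submitters' processing notes, FastQC, HISAT2 and the build mm10 were used; the counting tool, annotation and use of strand are not given in the sources used here. Columns were matched to samples by title. No 2 libraries of a group agreed within sampling noise by a chi-square test.

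Each tissue was fitted with edgeR 4.0.16 in R 4.3.3 (filterByExpr, TMM, robust quasi-likelihood, all dose groups), with Benjamini-Hochberg adjustment over all genes and a threshold of 0.05. The standard error is the absolute log2 change divided by the square root of F. Log2 CPM used a prior count of 2. Symbols and coordinates came from RefSeq (GRCm38.p6), and lengths and GC content from GENCODE vM21. Fits were tested on simulated data. The PDGF genes and the lists were chosen with earlier results of these data known. Named beyond the PDGF genes are list genes that passed and the 5 genes most correlated with Pdgfb; other names were chosen after their values were seen. Alternatives were DESeq2 1.42.0, median-ratio factors, other filters, 2 groups only, 1 surrogate variable (sva 3.50.0), a slope over mg/kg, a replicate block and the removal of each library. A GC covariate and scaling by library totals were added after seeing the data.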

Additional observations from a re-analysis of the deposited data

Results flagged for a closer look

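In 4 of 72 sets of 4 to 6 libraries, 1 library lay apart from the rest of its group by Dixon's criterion, where chance alone would give about 3.6. Pdgfa in prefrontal cortex at 1 mg/kg was 40.4 CPM in animal 48, and the nearest library had 47.3 CPM. Pdgfc in prefrontal cortex at 6 mg/kg was 11.5 CPM in animal 56 against 7.69 CPM in the nearest. Pdgfd in prefrontal cortex at 1 mg/kg was 3.52 CPM in animal 41 against 1.76 CPM. Pdgfrb in the liver at 0.1 mg/kg was 11.3 CPM in animal 28 against 7.88 CPM.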

How the results depend on the processing

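Pdgfb in prefrontal cortex, chosen by its slope there, is again only described, from refits of the same libraries. At 6 mg/kg its difference from vehicle was -0.65 to -0.51 over 29 alternatives, and without single libraries its slope was -0.24 to -0.19. No support is drawn from these ranges. Counts of passing PDGF genes stayed the same in 493 of the alternative fits, went up in 8 and down in 7. In the striatum at 6 against 0.1 mg/kg, where 1 passed, the count was 2 with DESeq2, with only the 2 groups compared and with 1 surrogate variable, 0 with the GC slope as covariate, and 0 to 2 without single libraries. The second PDGF gene was Pdgfa (adjusted p 0.0320 with DESeq2, and 0.0327 without 1 mg/kg animal 50). Of all genes, 440 passed in the main fit, 1098 with DESeq2, 668 with 2 groups and 1226 with the surrogate variable. With the GC slope 3 passed, and without single libraries 0 to 782. For the striatal slope the count was 1 instead of 0 over mg/kg, through Pdgfrb (edgeR adjusted p 0.0227), in a fit where 1862 of all genes passed. For the liver slope the count was 0 to 1 without single libraries, where 79 to 1317 of all genes passed. For prefrontal cortex against liver in vehicle it was 5 instead of 3 with library totals only. Of all genes 11962 passed there, against 11752. The cause was not tested.

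Animal numbers recur across tissues. In prefrontal cortex and striatum, same-numbered libraries deviated together with a mean r of 0.11, against -0.02 for other numbers, and 12 of 21 correlated best with their own number. This is a hint of pairing from the data, not from the labels. As r was over 0.1 in only 12 of 21 pairs, the fits without a block were kept. With a replicate block, Pdgfrb in prefrontal cortex minus liver was 0.61 (adjusted p 0.0137), and the counts of passing PDGF genes between tissues did not change. Depth limits Pdgfb, Pdgfc and Pdgfd in the liver.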
